A study of Mus musculus with 35 samples.

Results

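Nap1l5, Mcts2, Zrsr1 and Nnat are imprinted genes that lie inside introns of other genes, and Inpp5f is an imprinted locus that is its own host. The set comprised these 4 intronic genes, their hosts Herc3, H13, Commd1 and Blcap, and Inpp5f. It was listed by gene name and not by a cutoff on measured values, but earlier results of these data were known when it was chosen. All 9 genes were found at their GRCm38 positions among 21631 protein-coding genes on the autosomes and X.

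Peaks of 3 histone H3 modifications were deposited for female mouse germ cells. They were mapped by CATCH-seq, an immunoprecipitation of unfixed chromatin cut by micrococcal nuclease that suits samples of few cells. Cultured stages came from H18, an embryonic stem cell line with the Prdm1-mVenus; Dppa3-ECFP reporter: oogonia-like cells (d4c7, here c7) and oocyte-like cells (d4c13 and d4c34, here c13 and c34). Animal stages were E18.5 oocytes of reporter mice and germinal vesicle (GV) oocytes of BDF1 mice, the full-grown oocytes of the ovary. All samples were labelled WT, and the cultured stages rest on a single cell line. Peaks were given as 13 lists, H3K4me3 and H3K36me3 at 4 stages and H3K27me3 at 5, each with positions alone and no height or p-value. With 1 list per stage and mark, no difference between stages could be set against replicate spread and no test was made. In GV oocytes the H3K4me3 and H3K27me3 groups each held 1 library. How many animals or cells a library pooled is not given in the sources used here.

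Mammalian oocytes methylate the DNA of many imprinted promoters while they grow. At such loci transcription from an upstream or host promoter runs across the later imprinted promoter, the elongating polymerase leaves H3K36me3 in its wake through SETD2, and this mark recruits the DNA methyltransferase DNMT3A with its partner DNMT3L. H3K4me3, the mark of active and poised promoters, repels the same enzyme, and KDM1B removes H3K4 methylation at some imprinted loci in oocytes, while H3K27me3 is laid down by Polycomb. Retrogenes are copies of a spliced messenger RNA that were pasted back into the genome. Mcts2 and Zrsr1 are retrocopies of the X-linked genes Mcts1 and Zrsr2. The peak lists do not separate the parental alleles and hold no DNA methylation or RNA.

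The start sites around which the H3K4me3 results turn are shown first. The 4 sequences are the 250 bases before the start of each intronic gene, 5′ to 3′ on the gene's own strand, from the RefSeq promoter table of GRCm38.p6. CpG dinucleotides are in capitals because they are the sites at which DNA can be methylated. Whether those of these windows are methylated in oocytes was not measured here. Nap1l5 is at chr6:58907127-58907376 (minus strand), Mcts2 at chr2:152686898-152687147 (plus), Zrsr1 at chr11:22971755-22972004 (plus) and Nnat at chr2:157559828-157560077 (plus).
Nap1l5: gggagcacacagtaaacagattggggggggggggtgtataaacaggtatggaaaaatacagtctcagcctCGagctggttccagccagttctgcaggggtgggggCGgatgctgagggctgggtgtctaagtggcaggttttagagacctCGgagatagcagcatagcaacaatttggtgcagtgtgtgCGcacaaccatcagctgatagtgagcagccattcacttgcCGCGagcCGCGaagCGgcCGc
Mcts2: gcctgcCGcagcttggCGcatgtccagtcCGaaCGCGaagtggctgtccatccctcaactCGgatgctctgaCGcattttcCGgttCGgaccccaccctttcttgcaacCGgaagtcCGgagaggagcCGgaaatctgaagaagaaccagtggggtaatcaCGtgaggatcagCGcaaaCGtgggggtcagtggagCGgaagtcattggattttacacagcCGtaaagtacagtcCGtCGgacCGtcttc
Zrsr1: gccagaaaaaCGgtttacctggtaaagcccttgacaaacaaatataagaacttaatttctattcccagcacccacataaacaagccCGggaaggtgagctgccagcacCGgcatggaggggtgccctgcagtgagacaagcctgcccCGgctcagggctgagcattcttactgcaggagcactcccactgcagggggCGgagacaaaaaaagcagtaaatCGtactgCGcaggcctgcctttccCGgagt
Nnat: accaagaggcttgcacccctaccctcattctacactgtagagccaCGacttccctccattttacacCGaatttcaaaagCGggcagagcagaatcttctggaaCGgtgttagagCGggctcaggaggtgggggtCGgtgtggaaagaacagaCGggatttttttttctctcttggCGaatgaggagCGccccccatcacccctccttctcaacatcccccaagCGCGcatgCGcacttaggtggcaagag
The windows held 10 CpG for Nap1l5, 20 for Mcts2, 8 for Zrsr1 and 12 for Nnat, against a median of 6 over 32619 promoters of the table (quartiles 2 and 16). Mcts2 was the densest, with an observed over expected CpG ratio of 0.979 and more CpG than 81.9% of promoters. Nap1l5 and Zrsr1, at ratios of 0.530 and 0.433, lay nearer the median ratio of 0.378.

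Nap1l5, a member of the nucleosome assembly protein family, spans 1.9 kb (chromosome 6, 58905233 to 58907126) on the strand opposite to Herc3 (58831455 to 58920398), which encodes a HECT-type ubiquitin ligase. It starts late in its host, with 73.8 kb of Herc3 before it and 13.3 kb after it in the direction of Herc3 transcription. Mcts2, the retrocopy of a translation reinitiation factor gene, spans 0.8 kb (chromosome 2, 152687148 to 152687946) on the same strand as H13 (152669422 to 152708668), the gene for signal peptide peptidase, with 17.7 kb of host before it and 20.7 kb after it. Zrsr1, related to a splicing factor of the U2AF family, spans 4.5 kb (chromosome 11, 22972005 to 22976496) opposite to Commd1 (22899728 to 22984539), a regulator of copper handling and NF-kappaB, and lies 8.0 kb into it with 72.3 kb to follow. Nnat, which encodes the small membrane protein neuronatin, spans 2.4 kb (chromosome 2, 157560078 to 157562525) opposite to Blcap (157556362 to 157566361), with 3.8 kb of Blcap before it and 3.7 kb after it. Inpp5f (chromosome 7, 128611181 to 128696436), the gene for a phosphoinositide phosphatase, spans 85.3 kb, and is known to hold a shorter imprinted transcript that starts in an intron. The annotation used gives gene extents and start sites but no exons, so that inner start could not be placed.

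H3K4me3 lay over the starts of all 4 intronic genes at both early stages and over none of them in GV oocytes. H3K4me3 was called at a gene if it had a peak no farther than 1 kb from its left or its right end, 1 kb being the grid step of these lists. By this rule the intronic genes called were 4 of 4 in c13, 4 of 4 at E18.5, Zrsr1 and Nnat (2 of 4) in c34, and 0 of 4 in the GV list. Of the 9 genes, 8 were called in c13, where the share of all protein-coding genes was 71.7%. E18.5 oocytes had 8, beside 61.3% of all genes. In c34 there were 7, beside 66.7%, and GV oocytes had 5, beside 74.8%. GV oocytes thus had the highest background of the 4 lists and the lowest count among the 9 genes. Counted within 1 kb of a start site, the 4 intronic genes gave the same numbers, and nested genes of the table, which lie inside another protein-coding gene, were called at 49.0% in c13, 36.4% at E18.5, 40.4% in c34 and 45.5% in the GV list.

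At Nap1l5 a peak of 2 kb (58906001 to 58908000) covered the start in c13 and again, with the same borders, in E18.5 oocytes. The nearest peak was 60233 bp away in c34 and 68233 bp away in GV oocytes, at the Herc3 start in both cases. Nap1l5 was therefore marked in the early lists alone, by a peak no wider than 2 kb.

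Mcts2 lay whole in a peak of 82 kb in c13 (152685001 to 152767000), which ran on over Id1, Cox4i2 and Bcl2l1, and in one of 15 kb at E18.5 (152685001 to 152700000) with the same left border. The nearest peak in c34 ended 12148 bp before Mcts2 and that in GV oocytes 15148 bp before it. Both of these were the peak at the H13 start, so in these lists the intronic gene had no peak while its host start kept one.

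Zrsr1 lay whole in a peak of 12 kb in c13 and in one of 21 kb in c34 (22971001 to 22992000), and 2996 bp of its 4492 bp were covered at E18.5. The table lists a second start of Commd1 inside Zrsr1, at 22972866, so a peak there cannot be given to one gene rather than the other. In GV oocytes the peak over the main Commd1 start (22979001 to 22992000) ended on the right at the same position as in c34, while its left border was 8 kb farther right, 2505 bp beyond the end of Zrsr1.

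Nnat was covered whole in c13 by a peak of 15 kb, at E18.5 by one of 9 kb and in c34 by one of 11 kb (157558001 to 157569000), each of which also held the Blcap start. The GV peak (157565001 to 157572000) held the Blcap start and stopped 2476 bp short of Nnat. Its left border was 7 kb farther right than in c34, as at Zrsr1, so in both cases the peak shared by host and intronic gene in c34 lay over the host start and not the intronic gene in GV oocytes, and at Commd1 it also held Cct4 in both lists. The absence of a GV call at these 2 genes depends on the window. With 5 kb in place of 1 kb, Zrsr1 and Nnat were called in c34 and in the GV list alike, so that 2 of 4 intronic genes were called in each, beside 71.9% of all genes in c34 and 78.9% in the GV list. Nap1l5 and Mcts2 stayed uncalled in both.

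**Figure D1:**
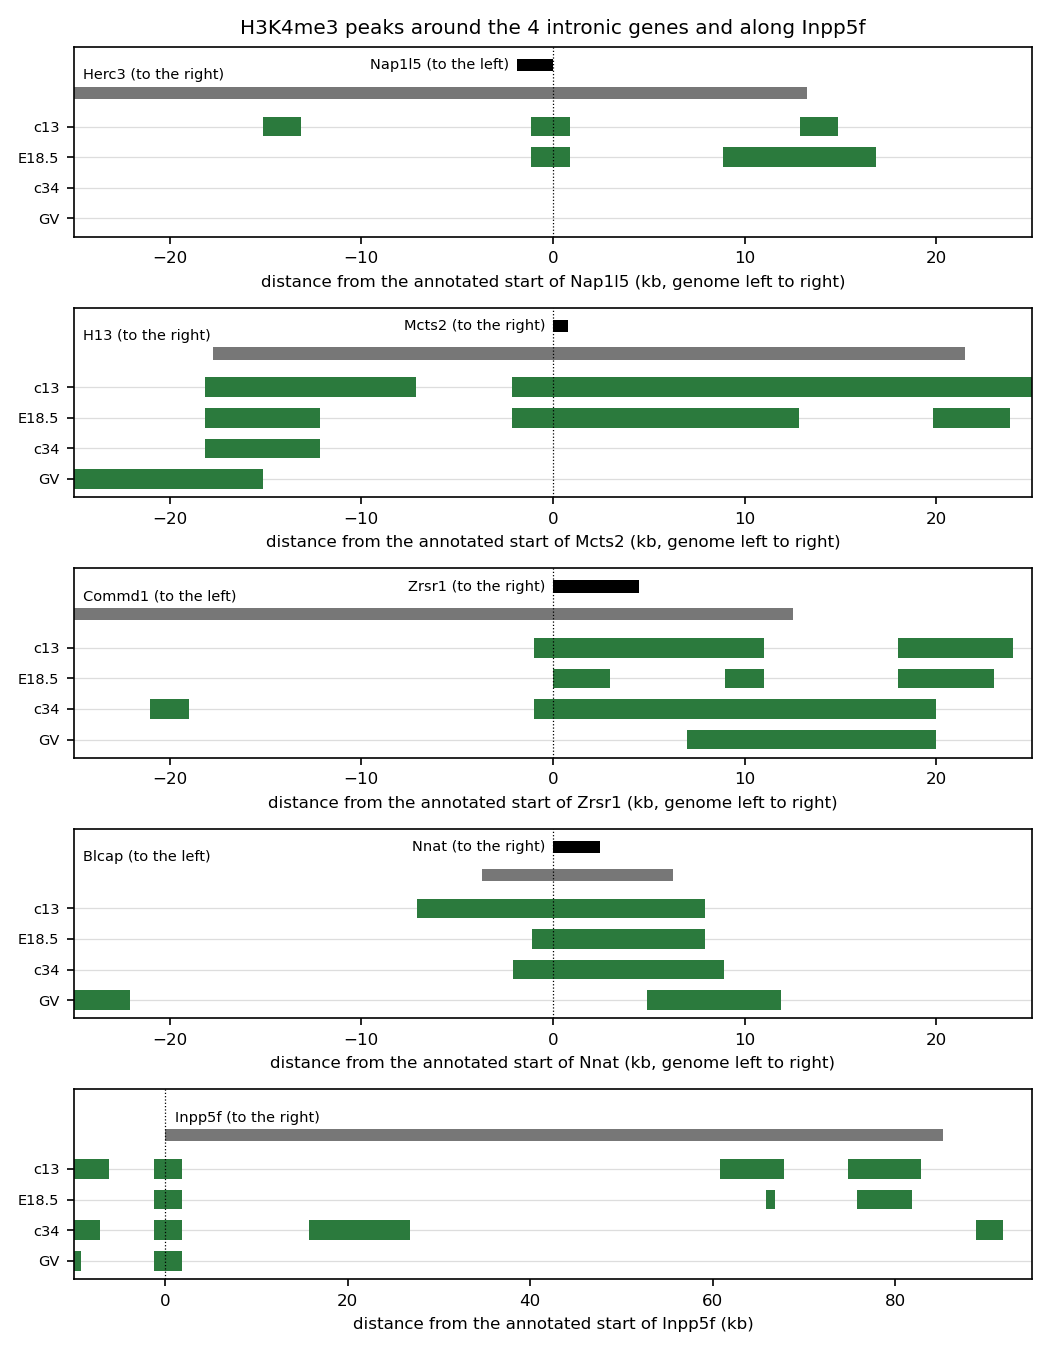
H3K4me3 peaks (green bars) at 4 stages, as distance in kb from the annotated start of each intronic gene or of Inpp5f, with the intronic gene in black, the host in grey and the direction of transcription in brackets. Bars cross the start of all 4 intronic genes in c13 and at E18.5, of Zrsr1 and Nnat in c34, and of 0 of them in GV oocytes.

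The host starts kept H3K4me3. With a peak within 1 kb of a start site of the RefSeq table as the rule, Herc3, H13, Commd1, Blcap and Inpp5f were marked in all 4 lists, against 70.5%, 60.7%, 64.7% and 71.9% of 17274 genes with such a site in c13, E18.5, c34 and GV oocytes. By the rule of either end Commd1 was unmarked in c13 and at E18.5, because its annotated right end lies 1539 bp beyond peaks that hold its main start site. The start peak of Herc3 measured 7 kb (c13), 5 kb (E18.5), 15 kb (c34) and 11 kb (GV). That of H13 measured 11, 6, 6 and 25 kb in the same order, the GV peak beginning upstream of the gene at 152647001. At Inpp5f a peak of 3 kb with the same borders (128610001 to 128613000) covered the start in all 4 lists.

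Peaks inside the hosts and away from their main start were found in c13, at E18.5 and, at other places, in c34. Inpp5f held inner peaks of 7 and 8 kb in c13 and of 1 and 6 kb at E18.5. The last of these (128687001 to 128693000) began 75.6 kb after the start and overlapped the c13 peak at 128686001 to 128694000. Neither c34 nor GV oocytes had a peak there, and c34 had an inner peak of 11 kb at another place (128627001 to 128638000). In c34 Commd1 also had an inner peak of 2 kb (22951001 to 22953000) that no other list held. Herc3 likewise had inner peaks besides that of Nap1l5, among them one in c13 and at E18.5 that began 45.3 kb from its start. Across the 4 hosts and Inpp5f, 10 peaks at E18.5 lay apart from the first start site of the host, of which 10 had no overlap within the gene in the GV list and 9 none in the c34 list. The exception in c34 was the peak at Zrsr1. The 10 include the peaks over Nap1l5, Mcts2 and Zrsr1 and peaks near the far ends of Herc3, H13 and Inpp5f. Genome-wide, of 6912 E18.5 peaks inside a protein-coding gene and over 5 kb from any gene end, 71.0% had no overlap in GV oocytes and 71.5% none in c34. By that stricter rule 4 of the 10 peaks remained, of which 4 had no overlap in either later list. Absence of early inner peaks was thus common among genes.

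H3K36me3, the mark of transcribed gene bodies, lay across all 4 intronic genes and over 90.4% or more of every host in c34 and GV oocytes. A body was called marked from 20% coverage. All 9 genes were marked in c34 and all 9 in GV oocytes, against 63.5% and 62.2% of all protein-coding genes. At E18.5 2 were marked, Zrsr1 and Commd1, against 22.1%, and in c13 7 were, against 67.8%, the exceptions being Herc3 and Nap1l5. All 4 intronic genes lay whole within 1 peak in c34 and in GV oocytes. Among 632 protein-coding genes that lie inside another, 50.6% and 49.7% did so at these stages. In c13 3 of the 4 did, beside 62.0% of nested genes, and at E18.5 Zrsr1 (1 of 4) did, beside 16.6%. Grid steps of 10 kb in these lists are wider than any of the 4 intronic genes, so a gap in the mark over an intronic gene alone could not have been seen.

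Herc3 was covered to 0% in c13 and at E18.5, to 99.6% in c34 and to 90.4% in GV oocytes. The c34 peak of 90 kb (58830001 to 58920000) followed the gene closely, holding its start and stopping 398 bp short of its right end. The GV peak was also 90 kb wide (58840001 to 58930000) but left the first 8546 bp of Herc3 free, where the GV H3K4me3 peak of the host start lay. The 73.8 kb before Nap1l5 were covered to 100% in c34 and to 88.4% by the GV peak, and the part after it to 97.0% and 100%. No other protein-coding gene lay under these peaks. Noncoding genes were not counted, and which transcript the mark belonged to was not tested.

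H13 was covered to 100% in c13, c34 and GV oocytes and to 0% at E18.5. Its peak was 310 kb wide in c34 and 290 kb in GV oocytes, with the same right border (152930000), and also held Id1, Cox4i2, Bcl2l1, Tpx2 and Mylk2. In c13 it was part of a peak of 8.31 Mb over 159 protein-coding genes, which held Blcap and Nnat too. The full coverage in c13 therefore says little about these genes in particular.

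Commd1 was covered to 100% in all 4 lists. The peak was 430 kb wide with the same borders in c34 and GV oocytes (22690001 to 23120000) and held 5 protein-coding genes, while in c13 it was 2.15 Mb wide and at E18.5 5.43 Mb wide. Blcap was covered to 100% in c13, c34 and GV oocytes and to 0% at E18.5. Its peaks of 90 kb in c34 and in GV oocytes ended 7475 bp and 17475 bp to the right of Nnat. Inpp5f had 0% at E18.5 and 100% in c34 and GV oocytes, in a peak with the same borders at both stages (128610001 to 128790000) that began at its start and ran on over Mcmbp and Sec23ip. In c13 it lay in a peak of 20.9 Mb. Without peaks of 1 Mb or more, H3K36me3 was called at 0 of the 9 genes in c13 and at 0 of 9 at E18.5, whereas the counts of 9 in c34 and in GV oocytes stood.

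**Figure D2:**
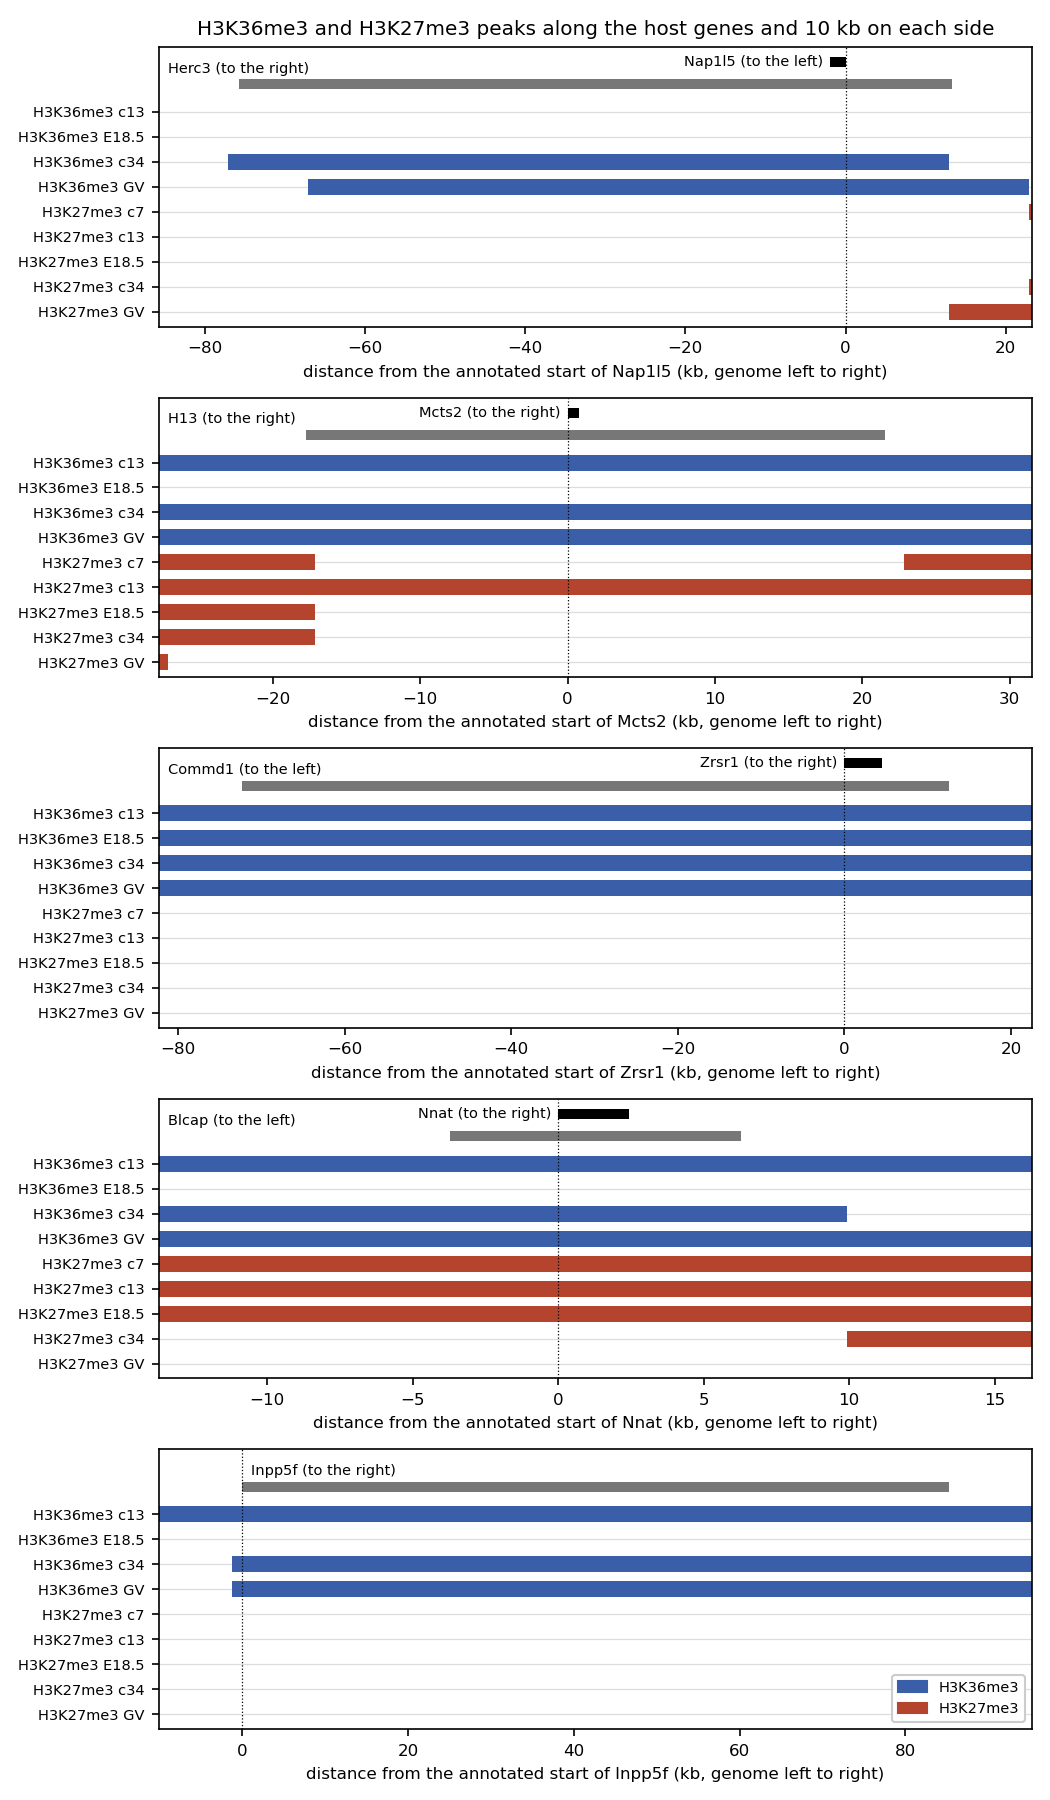
H3K36me3 (blue) and H3K27me3 (red) peaks along the 4 hosts, Inpp5f and 10 kb on each side, as distance in kb from the annotated start of the intronic gene or of Inpp5f, 1 row per list, with genes in grey and black. Blue bars cross all 4 intronic genes in the c34 and GV rows. Red bars cover Nnat in c7, c13 and E18.5 oocytes and Mcts2 in c13.

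H3K27me3 was limited to the loci of H13 and Blcap, apart from the 3′ edge of Herc3. By the rule of 1 kb around either end, 4 of 9 genes were called in c13 (60.2% of all protein-coding genes), 3 in c7 (46.0%), 3 at E18.5 (39.1%), 1 in c34 (43.7%) and 1 in the GV list (28.3%), so the members' share was below the background in every list. Of the intronic genes, Nnat was marked in c7, c13 and at E18.5, Mcts2 in c13, and Nap1l5 and Zrsr1 in 0 of 5 lists. Inpp5f and Commd1 were likewise marked in 0 of 5 lists.

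Nnat and Blcap lay whole in a peak of 330 kb in c7, one of 680 kb in c13 and one of 320 kb at E18.5. In c34 a peak of 160 kb began at 157570001, 7476 bp to the right of Nnat, at the position where the c34 H3K36me3 peak ended. In GV oocytes the nearest peak was 37476 bp away. Mcts2 lay whole in a c13 peak of 430 kb. At H13 the peaks of c7, E18.5 and c34 all ended at 152670000, 579 bp into the gene, and that of GV oocytes ended at 152660000, before it. The c34 and GV peaks held beta-defensin genes such as Defb25 and Defb36 and Rem1, upstream of H13. The border at 152670000 was 17148 bp from Mcts2. At Herc3 the GV peak began at 58920001, and so reached 398 bp into the 3′ end of the gene from the side of Fam13a, where the c7 and c34 peaks began at 58930001.

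The marks were then read together at the intronic genes, with H3K4me3 within 1 kb of the start and H3K36me3 over the whole gene. At E18.5 Nap1l5, Mcts2 and Nnat had H3K4me3 without H3K36me3, and Zrsr1 had both. In c13 Nap1l5 had H3K4me3 alone and the other three had both, under the very wide H3K36me3 peaks named above. In c34 Nap1l5 and Mcts2 had H3K36me3 without H3K4me3, and Zrsr1 and Nnat had both. In the GV lists 4 of 4 had H3K36me3 without H3K4me3, and 0 of 4 had H3K27me3.

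Among 431 nested protein-coding genes with a start site in the table, the GV combination of H3K36me3 over the gene with neither other mark was found at 29.7%. The course from H3K4me3 at the start at E18.5 to H3K36me3 without it in GV oocytes was found at 8.35% of them, the 4 genes included. With H3K36me3 absent at E18.5 as a further condition, as at Nap1l5, Mcts2 and Nnat, it was found at 6.50%. Of nested genes with H3K4me3 at E18.5, 31.2% had none at a start in GV oocytes, against 6.91% of 10491 genes of all kinds. With nested genes at least 3 kb inside their host the share was 43.9% of 98. A call in c13 and none in c34, as seen at Nap1l5 and Mcts2, was found at 33.6% of 211 nested genes with H3K4me3 in c13, at 43.2% of 132 that lay at least 3 kb inside, and at 12.9% of all genes with the mark. The states of the 431 nested genes were mixed at every stage. H3K4me3 without H3K36me3 was found at 9.51% in c13, 30.6% at E18.5, 11.1% in c34 and 19.5% of GV calls, both marks at 39.4%, 5.80%, 29.2% and 26.0%, and H3K36me3 alone of the 3 marks at 9.74% in c13, 7.89% at E18.5 and 23.7% in c34.

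**Figure D3:**
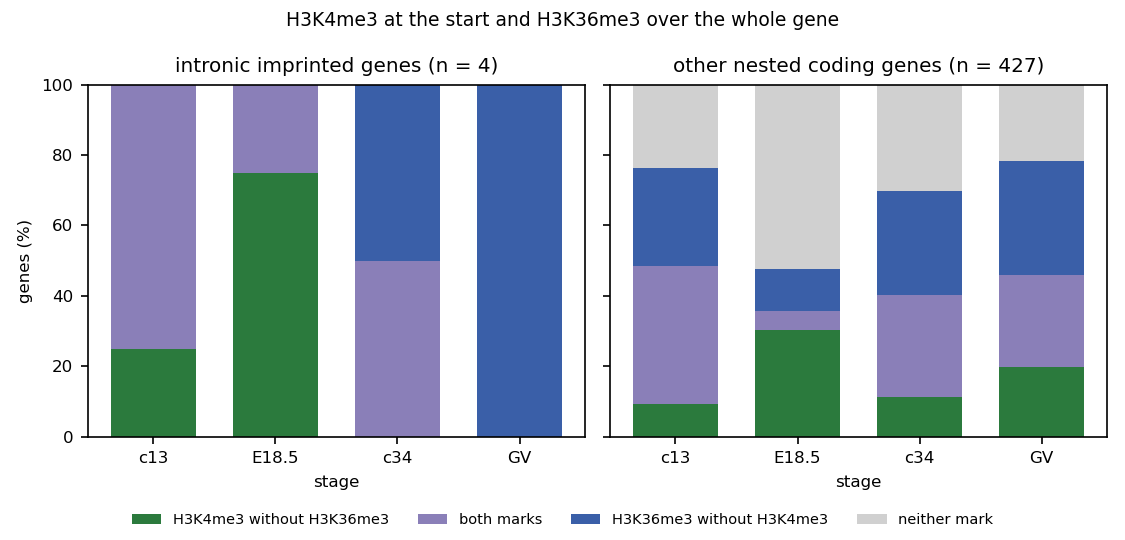
Share of genes (%) with H3K4me3 within 1 kb of the start, H3K36me3 over the whole gene, both or neither, at each of 4 stages, for the 4 intronic imprinted genes (left) and 427 other nested protein-coding genes (right). In GV oocytes 100% of the 4 genes and 32.3% of the others had H3K36me3 without H3K4me3.

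Between the latest cultured stage and the full-grown oocyte, H3K36me3 was called at all 9 genes in both lists, as at 57.0% of all protein-coding genes, while another 6.46% of all genes were called in c34 alone and 5.23% in GV oocytes alone. H3K4me3 calls were alike at 7 genes, with 5 called in both lists, as were 64.0% of all genes. Zrsr1 and Nnat were marked by H3K4me3 in c34 alone, as were 2.76% of all protein-coding genes, and 0 of 9 in GV oocytes alone, as were 10.8%. Calls alike at most of the 9 genes were thus also the rule among all genes. Counted at start sites, H3K4me3 in c34 and not in GV oocytes was found at 3.04% of all genes and 6.26% of nested genes. H3K27me3 differed at H13, marked in c34 alone (18.1% of all genes), and Herc3, marked in GV oocytes alone (2.73%), both through peak borders within 1 kb of a gene end. The early pair, c13 and E18.5, had the same 8 genes marked by H3K4me3. Of all genes 60.5% were marked in both, 11.1% in c13 alone and 0.730% at E18.5 alone. There H3K36me3 was called at 5 genes in c13 alone (55.0% of all genes), and H3K27me3 at Mcts2 in c13 alone (31.0%).

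From E18.5 to GV oocytes, H3K4me3 was called at the first stage alone at Nap1l5, Mcts2, Zrsr1 and Nnat, where 3.72% of all genes were (at start sites 4.20%, and 11.4% of nested genes), and at the second alone at Commd1, where 17.2% of all genes were. H3K27me3 was called at the first alone at H13, Blcap and Nnat (22.3% of all genes) and at the second alone at Herc3 (11.5%). H3K36me3 was called at the second stage alone at the 7 genes outside the Commd1 locus, where 48.4% of all genes were. From c13 to c34, Nap1l5 and Mcts2 had H3K4me3 at the first stage alone (9.20% of all genes, and at start sites 9.08%, with 16.5% of nested genes), and Commd1 had it at the second alone (4.27%). Both Commd1 differences depend on the rule of either end, as its start sites were marked in all 4 lists. Nap1l5 and Herc3 had H3K36me3 at the second alone (11.2%), and Blcap, Mcts2 and Nnat had H3K27me3 at the first alone (24.2%). From c7 to c13 the H3K27me3 calls were the same save for Mcts2, added in c13 as at 23.6% of all genes. These pairs share lists and are not independent of each other.

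**Figure D4:**
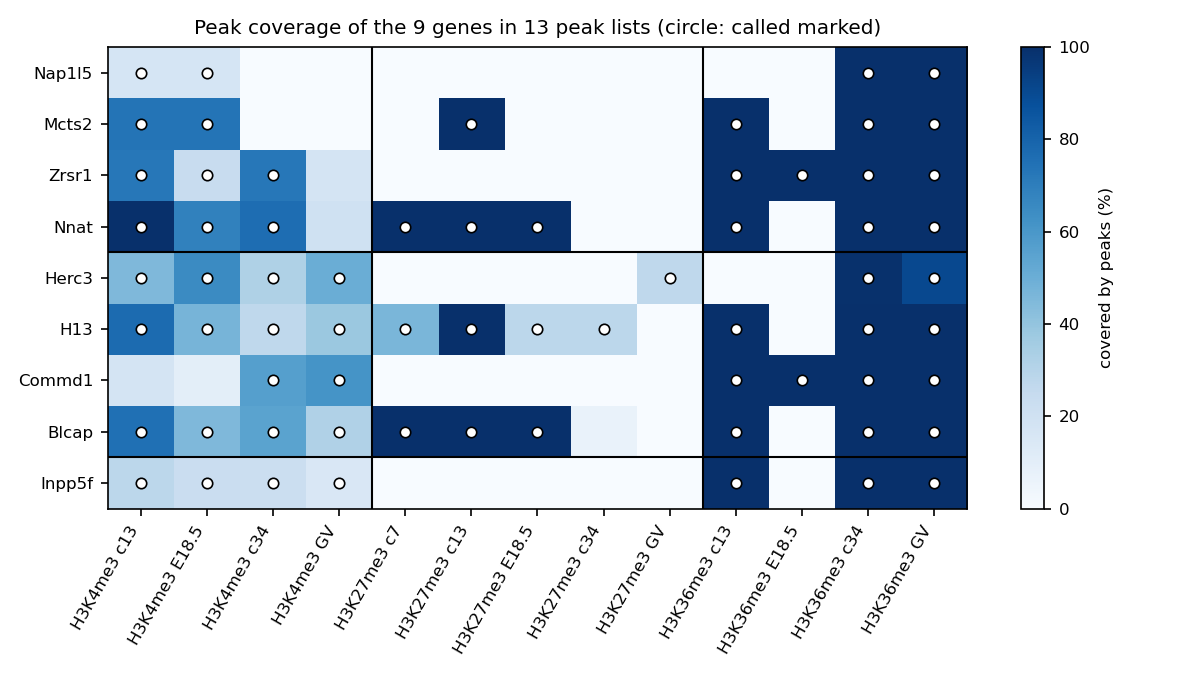
Percent of each gene covered by peaks in 13 lists, as body coverage for H3K36me3 and as coverage of windows of 5 kb on each side of both gene ends for the other marks (short genes: the gene with 5 kb on each side), with a circle where the gene was called marked. The H3K4me3 circles of the 4 intronic genes (top rows) number 4 for c13, 4 for E18.5, 2 for c34 and 0 for GV oocytes.

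Other imprinted genes with maternal germline methylation were set beside the set by the same rules, in a list of 15 genes such as Mest, Grb10 and Igf2r. H3K36me3 was called over 3 of them at E18.5, 10 in c13, 15 in c34 and 12 in GV oocytes. The shares of all protein-coding genes were 22.1%, 67.8%, 63.5% and 62.2% in the same order. Sgce, Snrpn and Zdbf2 were those called in c34 and not in GV oocytes. H3K4me3 was called at 14 in c13, 14 at E18.5, 11 in c34 and 10 in the GV list, beside 71.7%, 61.3%, 66.7% and 74.8% of all genes. The rule scores annotated gene ends, and the methylated region of each locus was not placed. A call at these genes therefore need not lie at the imprinted promoter, and the counts do not show whether that promoter kept the mark. Peg13, an imprinted noncoding gene, and Peg3, a zinc finger gene, were called in c34 and not in GV oocytes, and Zdbf2 the reverse, although c34 peaks lay over 21.9% of the Zdbf2 body. H3K27me3 was called at 4 in c34 and the same 4 in GV oocytes, against 11 in c7. Among all genes the shares were 43.7%, 28.3% and 46.0%. Of 6 genes of paternally methylated loci, H3K36me3 was called over 0 at E18.5, 6 in c13, 3 in c34 and 3 in GV oocytes. These counts stand beside the same shares of all genes. Meg3, Rasgrf1 and Rtl1 were those called in c34 and in GV oocytes. In GV oocytes H3K27me3 was called at 5 of the 6, beside 28.3% of all genes. Among the 5 were Igf2, a growth factor gene, and H19, its noncoding neighbour. Near a gene end, H3K4me3 was called at Igf2 and Dlk1 in GV oocytes and not in c34, and H3K27me3 at Rasgrf1 in c34 and not in GV oocytes. Inside the bodies the lists were closer for Igf2, with c34 H3K4me3 over 43.6% and GV H3K4me3 over 49.9%. Rasgrf1 had GV H3K27me3 over 42.6% of its body, and Dlk1 had c34 H3K4me3 over 0%. The difference between these lists and the 9 genes was not tested.

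Of 17 genes of the machinery of maternal imprints, 17 had H3K4me3 near an end and 15 had H3K36me3 over the body in GV oocytes. At E18.5 these counts were 14 and 2. Among all protein-coding genes the shares were 74.8% and 62.2% in GV oocytes and 61.3% and 22.1% at E18.5. Setd2, Kdm1b and Trim28, a corepressor that protects imprints, were called for H3K4me3 in all 4 lists. Dnmt3l was called for it in c13, c34 and GV oocytes and not at E18.5, and for H3K27me3 in c7, c13 and at E18.5 alone. Dnmt3a was called for H3K4me3 near an end in the E18.5 and GV lists, while its body was covered to 42.5% in c13, 10.6% at E18.5, 36.3% in c34 and 26.1% in the GV list, so the mark was present in all 4. Tet1, a gene for an enzyme that oxidises methylated cytosine, was called in GV oocytes and not in c34, with 74.2% and 4.83% of its body covered. H3K27me3 at Dnmt3a, Kdm1a, Nsd1 and Zfp445 and H3K36me3 at Dppa3 were called in c34 and not in GV oocytes.

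Of 6 genes related to Mcts2, Zrsr1 and Nap1l5, H3K4me3 was called at 6 in c13, 4 at E18.5, 5 in c34 and 5 in the GV list. The shares of all protein-coding genes were 71.7%, 61.3%, 66.7% and 74.8% in the same order. Mcts1 and Zrsr2 were called in all 4 H3K4me3 lists, as were Nap1l1 and Nap1l4 of the nucleosome assembly family. Mcts1 carried H3K36me3 over its body at E18.5 alone, and Zrsr2 in c13, c34 and GV oocytes. H3K4me3 was called at Nap1l2, an X-linked family member, in c13 alone, and at Nap1l3, also X-linked, in c13, c34 and GV oocytes. H3K27me3 was called at Nap1l4 in c13 and at Nap1l2 at E18.5 and at 0 of the 6 genes in c7, c34 and GV oocytes.

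Likeness to other genes was measured over 13 lists, by the number of equal calls and then by the mean difference in percent covered. Nap1l5 had the rarest pattern of the intronic genes. It shared all 13 calls with 2 genes, Armh2 (mean difference 2.40 percentage points) and Snurf (3.30), the upstream reading frame of the imprinted Snrpn locus. B3galt2 came next, with 12 equal calls. Mcts2 shared its calls with 20 genes, of which Gm13090, Nanos3 and Adm were nearest. Nnat shared them with 19, led by Ccr10, Gm6583 and Tha1, and Zrsr1 with 12, led by Zfp113, Akap12 and Armt1. Inpp5f, marked by H3K4me3 at its start throughout and by no H3K27me3, shared its calls with 1586 genes, 7.34% of all, Taf1d, Nsa2 and Cspp1 being nearest. These are neighbours in a pattern of calls and nothing more.

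Motifs were searched on both strands of the 250 bases before each start. TGCCGC, the core letters bound by the imprint protector ZFP57 when methylated, was present once in the windows of Nap1l5 and Mcts2 and in 8.73% of all promoters. It was not in those of Zrsr1, Nnat, Inpp5f or the hosts. The palindrome of NRF1 sites, GCGCA followed by its reverse complement, was present in the window of Nnat and in that of the second Commd1 start, and in 0.788% of promoters. CCGGAAGT, the core of ETS sites, was present once at Mcts2 and in 2.90% of promoters. The matches did not overlap each other, and each describes letters in a window and no binding.

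The 13 lists differ in ways that touch every count. H3K4me3 covered 135.3 to 644.5 Mb of the chromosomes used, most in GV oocytes. Peaks of 1 Mb or more made up 79.8% of the H3K36me3 length in c13 and 34.4% at E18.5, against 4.77% in c34 and 4.80% in GV oocytes. As a check of the labels, H3K4me3 was called at 8 to 10 of 10 germ cell and oocyte genes such as Ddx4 and Figla, and at 4 to 6 of 8 genes of gonadal somatic cells such as Foxl2, per list, both beside the shares of 61.3% to 74.8% of all genes given above. Of 5 pluripotent cell genes, H3K4me3 was called at 5 in c13, 3 in c34, 4 in E18.5 and 4 in GV oocytes. These counts too stand beside the H3K4me3 shares of all genes. H3K27me3 was called at 8, 7, 8, 7 and 5 of the 8 somatic genes in c7, c13, c34, E18.5 and GV oocytes. In the same order it was called at 7, 8, 2, 6 and 2 of the 10 germ cell genes. At the 5 pluripotent cell genes the counts were 1, 3, 5, 1 and 3. The H3K27me3 shares of all genes were 46.0%, 60.2%, 43.7%, 39.1% and 28.3%. The part of other cell types in the peaks was not tested.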

How the data were processed

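CATCH-seq libraries of 3 histone marks and input (35 in all) were reduced by the authors to 13 peak lists, whose deposited values are positions in base pairs, an other unit than counts, per the file headers. Per the submitters' processing notes, the tools were Bowtie2 2.3.4.1, SICER 0.0.41 and MACS2 2.1.1, on GRCm38.p3 or mm10. The caller of each list, its threshold and whether input or pooled libraries entered it are unstated in the labels and headers, and depth is unknown. Starts were multiples of 1 kb (H3K4me3) or 10 kb, counted from 0, and are given 1-based.

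Gene positions came from the RefSeq table of GRCm38.p6 and start sites and sequences from its promoter table, in which all 9 genes matched. Peaks were intersected with genes in Python 3.11.15 with numpy 2.4.6 and pandas 2.3.3, and figures drawn with matplotlib 3.10.9. The arithmetic was tested on simulated data. Background shares are over all protein-coding genes or over those nested in another; the share of genes at least 3 kb inside their host was added after the data were seen. Named genes were the 9 members, related genes, list members that differed between c34 and GV oocytes, and the 3 genes of most like calls per intronic gene and Inpp5f. Dnmt3l, Dnmt3a, Setd2, Kdm1b, Trim28, Meg3, Rasgrf1, Rtl1, Igf2 and H19 were named after their values were seen. The members and lists were chosen with earlier results of these data known. Input libraries were not used here. The planned protein comparison was not made, since no protein table was used here.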

Additional observations from a re-analysis of the deposited data

How the results depend on the processing

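Each count of marked genes was recomputed under the alternatives. Of 77 recomputed counts, 63 stayed within 1.5 times the value reported and 14 did not. With a peak required at both ends, H3K4me3 was called at 5 genes at E18.5, 2 in c34 and 0 in the GV list, and H3K27me3 at 0 in c34 and 0 in the GV list. A requirement of both ends removes every gene with a peak at its start alone. Keeping the wider peaks of each list, from its median width upward, gave 5 genes for H3K4me3 at E18.5, 3 in GV oocytes, and 5 for H3K36me3 in c34 and 5 in GV oocytes. With these peaks the nearest H3K4me3 lay 71233 bp from Nap1l5 in c13 and 8875 bp from it at E18.5, 13505 bp from Zrsr1 at E18.5 and 22078 bp from Nnat in GV oocytes. The early calls of Nap1l5, and of Zrsr1 at E18.5, thus rest on peaks of 2 or 3 kb, below the list median of 4 kb. Other calls also rest on peaks below the median. They are the Inpp5f start in all 4 lists (3 kb) and the Blcap start in GV oocytes (7 kb, median 11 kb). H3K36me3 over Herc3, Nap1l5, Blcap and Nnat in c34 and GV oocytes rests on peaks of 90 kb, below medians of 100 kb. A window of 5 kb gave 2 genes for H3K27me3 in c34, and 7 in place of 5 for H3K4me3 in GV oocytes, with Zrsr1 and Nnat called there as in c34. Without peaks of 1 Mb or more, H3K36me3 was called at 0 genes in c13 and 0 at E18.5, and 0 intronic genes lay whole in a peak at either stage. Start sites in place of gene ends (recomputed for H3K4me3 alone), other body shares, merged gaps and flanks of 10 kb moved no count by over 1.5 times. For H3K27me3, outside the 77 recomputed counts, start sites gave 0 genes in place of 1 in the GV list and the same counts in the other lists. Peaks carried no score, so no stricter threshold could be tried. No paired analysis was possible because each stage and mark has 1 list that carries no replicate number. Depth is unknown, so absence of a peak does not show absence of a mark.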

Other observations

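Early H3K4me3 peaks inside gene bodies in general were also set beside the later H3K36me3 lists. Of 4757 E18.5 peaks inside a gene and over 5 kb from any gene end that lay whole under a GV H3K36me3 peak, 79.7% had no overlap with GV H3K4me3, against 51.8% of 2155 such peaks that did not. The same split in c34 gave 71.8% of 4744 peaks and 70.8% of 2168. The difference between the stages was not tested, as each stage has 1 list per mark. Of the 10 E18.5 peaks described inside Herc3, H13, Commd1 and Inpp5f, 4 are of the kind counted here.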
